A study of Homo sapiens with 12 samples.

Results

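The genes described here are the 10 that make, move and use short hairpin-derived RNAs in human cells: the 4 Argonautes AGO1, AGO2, AGO3 and AGO4, the nuclear processing pair DROSHA and DGCR8, the exporter XPO5, the cytoplasmic processing pair DICER1 and TARBP2, and the Argonaute partner TNRC6A. They were chosen by symbol, and all 10 were found among the 23615 genes of the count table and again in the table of FPKM values (read counts scaled to gene length and library size). Expression was measured by RNA sequencing of HEK293T cells, an embryonic kidney cell line, in a study that, by its title, asks what HuR does to the transcriptome under electrophile and oxidant stress. HuR, the product of ELAVL1, binds messenger RNAs. The cells carried a pLKO lentiviral vector whose hairpin was aimed at HuR in the shHuR line and was a control sequence in the shControl line, so both lines had been transduced, selected with puromycin and made to express a hairpin, and no hairpin-free cells were included. Each line was left untreated, given 25 µM HNE(alkyne), a tagged version of an electrophile formed when lipids oxidize and called HNE here, or given 225 µM hydrogen peroxide (H2O2), for 18 h. Each of these 6 groups held 2 libraries, called biological replicates by the submitters, which gave 12 in all. The labels name 1 hairpin and 1 line against HuR and 1 of each as control, so a difference between the lines cannot be told apart from a difference between the hairpins or between the selected populations.

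Endogenous microRNAs are cut from their nuclear primary transcripts by the RNase III enzyme DROSHA, held on the transcript by its RNA-binding partner DGCR8, and the resulting hairpins leave the nucleus through the export receptor XPO5. Hairpins transcribed from a pLKO vector skip the DROSHA step and join the same route at export. In the cytoplasm DICER1, with its cofactor TARBP2, removes the loop, and an Argonaute keeps one strand as its guide. AGO2 is the Argonaute known for slicing perfectly matched targets, while all 4 can repress partly matched ones through TNRC6 proteins, which bring in the deadenylases that shorten target messages.

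The hairpins are shown because each line was built to express one of them, which then enters the machinery described here. In the shHuR insert, capitals mark the paired arms on either side of the lower-case loop; in its guide strand, as the labels' sequence implies, capitals mark the seed, bases 2 to 8, which leads target recognition. For shControl the labels give a single strand, and no part of it is marked.
shHuR insert: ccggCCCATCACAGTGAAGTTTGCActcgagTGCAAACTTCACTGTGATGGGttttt
shHuR guide strand: tGCAAACTtcactgtgatggg
shControl: gtcgagctggacggcgacgta
The shHuR arm with the sense of the target matched ELAVL1 alone among the GENCODE 29 transcripts, at chromosome 19, positions 7967669 to 7967689 (GRCh38, minus strand), within the coding part of exon 5 of 6. Neither strand of the shControl sequence matched a transcript of any gene over its 21 bases. The 7-base site complementary to the shHuR seed, AGTTTGC, was searched on the transcript strand in the first 1000 bases of the 3′ UTR of 1 transcript a gene, the one with the longest coding sequence. It was found in none of the 8 members with a UTR of that length, against 6.8% of 7849 genes. At that share, its absence from 8 genes says little. TARBP2 and DROSHA had shorter UTRs. The UTRs of AGO1, AGO2 and AGO3, at 10921, 11888 and 16755 bases, lay mostly outside the window. No seed of the shControl sequence was searched. Overlapping matches to TTTTT in the same window numbered 22 in TNRC6A, 16 in DICER1, 12 in AGO4, 10 in AGO3, 8 in DGCR8, 6 in AGO2, 5 in AGO1 and 0 in XPO5, against a median of 5 and at least 1 match in 87.5% of those genes. Matches to ATTTA numbered 4 in AGO2 and in DICER1, 3 in TNRC6A, 1 in AGO3 and in AGO4, and 0 in AGO1, DGCR8 and XPO5, against a median of 2 and at least 1 match in 75.7%. HuR is known to bind U-rich and AU-rich stretches, but a run of letters is not a binding site.

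Total counts ran from 24855946 to 29907258 a library, and the 10 genes together took 0.0928% to 0.112% of them. Replicate 1 of H2O2-treated and of HNE-treated shControl cells had 17278 and 17524 genes with a count, against 18057 to 18301 in the other libraries. The chi-square per degree of freedom between replicates, larger where they differ more, was 22.6 for HNE-treated and 10.9 for H2O2-treated shControl cells. In the other groups it was 3.02 to 9.55. ELAVL1, the hairpin's target, was measured at 86.0 to 99.4 CPM (counts scaled to library size) in the 6 shControl libraries and at 69.3 to 74.5 CPM in the 6 shHuR libraries, so the groups did not overlap and the labels held. The average difference was -0.38 on the log2 scale, or 23.3% lower (edgeR's quasi-likelihood test, Benjamini-Hochberg adjusted p = 2.60e-06). Among markers of the line, VIM lay at 345 to 522 CPM and NEFL at 66.3 to 111 CPM. EYA1 lay at 11.4 to 16.7 CPM and NEFM at 3.39 to 11.8 CPM. PAX2 and LHX1, factors of the developing kidney, reached at most 0.491 and 1.23 CPM. The 9 markers of blood, liver, endothelium, fibroblast and podocyte reached at most 0.540 CPM. In bulk RNA, a change in the make-up of a population and a change in RNA per cell cannot be told apart. Nothing in the labels says that replicates came from separate transductions, so the p-values measure the spread between these cultures.

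Across the treatments, AGO1 was 25.2% higher, TNRC6A 21.9% higher, TARBP2 19.3% higher, DROSHA 18.5% higher and AGO3 12.8% higher in shHuR than in shControl cells. AGO4 was 25.8% lower, DICER1 15.0% lower and DGCR8 8.06% lower. AGO2 and XPO5 did not pass the test. Thus 8 of the 10 genes were called by edgeR at an adjusted p under 0.05, where 29.9% of the 16005 genes tested were called, and 39.7% of the 6274 genes whose mean CPM lay in the members' range. Their median absolute log2 difference was 0.24, against 0.15 over all genes tested. The list was chosen with earlier results of these data known, so these values describe it and do not test it. The direction was mixed, with 5 higher (14.1% of all genes were called higher) and 3 lower (15.9%), and called genes of both directions stood within the Argonaute family and within each pair of processing partners. The DGCR8 and AGO3 calls were lost on leaving out 10 and 8 of the 12 libraries in turn, and DGCR8 also in most other fits.

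**Figure D1:**
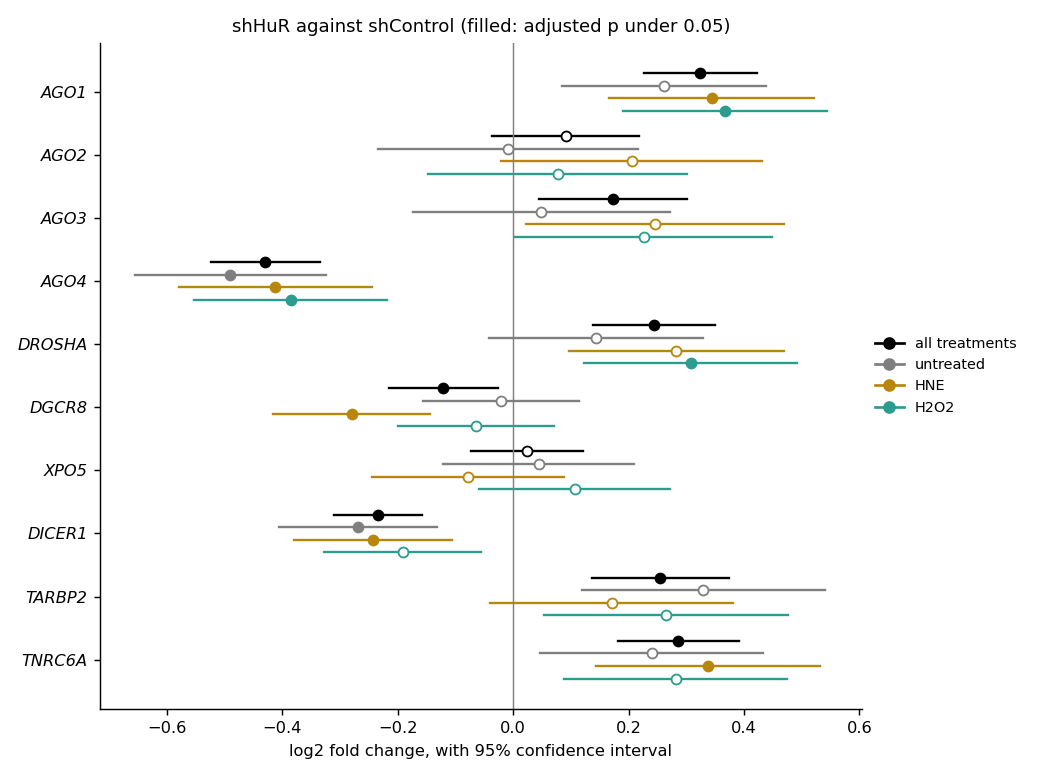
Average difference between the shHuR and shControl lines for each of the 10 genes, and the same difference within untreated, HNE-treated and H2O2-treated cells. The x axis is the log2 fold change, bars are 95% confidence intervals, and filled markers passed the test; AGO4 lies to the left of 0 and AGO1 to the right of 0 in all 4 comparisons.

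The Argonautes moved in different directions. Untreated shControl cultures held AGO4 at 54.0 and 58.0 CPM, and untreated shHuR cultures at 40.2 and 39.5 CPM. After HNE the shControl pair stood at 52.3 and 47.6 CPM against 37.4 and 37.7 CPM for shHuR, and after H2O2 at 47.7 and 48.2 CPM against 36.8 and 36.7 CPM. Every shHuR library lay below every shControl library. The average difference was -0.43 on the log2 scale (SE 0.0448, adjusted p = 2.22e-06 by edgeR), and 13.3% of all genes tested had a larger difference in either direction. AGO1 ran the other way. Untreated, it stood at 107 and 104 CPM in shControl against 119 and 134 CPM in shHuR cells. After HNE the values were 97.6 and 95.1 against 126 and 119 CPM, and after H2O2 96.5 and 113 against 137 and 133.5 CPM. The lowest shHuR library stood above the highest shControl library, and the average difference was 0.32 (SE 0.0462, adjusted p = 5.51e-05). AGO3 averaged 26.6 CPM ± 1.60 (SD, n = 6) over the shControl libraries and 29.95 CPM ± 2.29 (SD, n = 6) over the shHuR libraries. It differed by 0.17 (edgeR adjusted p = 0.0393), and its libraries overlapped. Its call was kept on leaving out replicate 1 of untreated or HNE-treated cells of either line, and was lost on leaving out any of the other 8 libraries in turn, with an adjusted p of up to 0.122. AGO2, the slicing Argonaute, lay at 48.4 CPM ± 4.58 (SD, n = 6) and 51.5 CPM ± 3.14 (SD, n = 6), with overlapping libraries. Its difference of 0.09 had a 95% confidence interval from -0.04 to 0.22 (edgeR adjusted p = 0.278).

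AGO4, AGO1 and AGO3 are neighbours on the plus strand of chromosome 1, in that order. In GENCODE 29 on GRCh38 they span 35808172 to 35857890, 35869808 to 35930528 and 35930718 to 36072500, with gaps of 11917 and 189 bases and no coding gene in either gap. The outermost pair in line difference, AGO4 and AGO1, are therefore adjacent genes read in the same direction, and AGO3, which begins 189 bases beyond the end of AGO1, shared the direction of AGO1. No 75-base stretch of the transcript used for each Argonaute was shared with a transcript of another gene in this annotation.

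Because CPM does not take account of gene length, levels were compared between the Argonautes in FPKM. The ratio of AGO1 to AGO4 within a library averaged 1.89 in shControl cells (1.69 to 2.21 over 6 libraries) and 3.18 in shHuR cells (2.79 to 3.51), with no overlap. AGO4 made up 17.0% of the summed FPKM of the 4 Argonautes in shControl cells (14.9% to 18.6%) and 11.7% in shHuR cells (10.7% to 13.3%). The share of AGO1 was 31.9% and 37.0%, that of AGO2 33.4% and 32.9%, and that of AGO3 17.6% and 18.3%. The shares of AGO1 and AGO4 thus differed most, while AGO2 kept close to the same share. The summed FPKM averaged 42.96 in shControl cells (38.59 to 46.03) and 46.55 in shHuR cells (43.3 to 49.11). Shares are parts of this sum, so they do not show that AGO1 replaced AGO4. These shares rest on the gene lengths the authors used: counts divided by FPKM imply 7.45 kb for AGO1, 3.37 kb for AGO2, 3.52 kb for AGO3 and 7.02 kb for AGO4, while the GENCODE 29 transcripts used here for AGO1, AGO2 and AGO3, 1 a gene with the longest coding sequence, are 13708, 14581 and 19687 bases long. The order of the family per length depends on that choice, and so do the shares and the amounts by which they differ between lines. The fold difference of each single gene between lines does not.

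**Figure D2:**
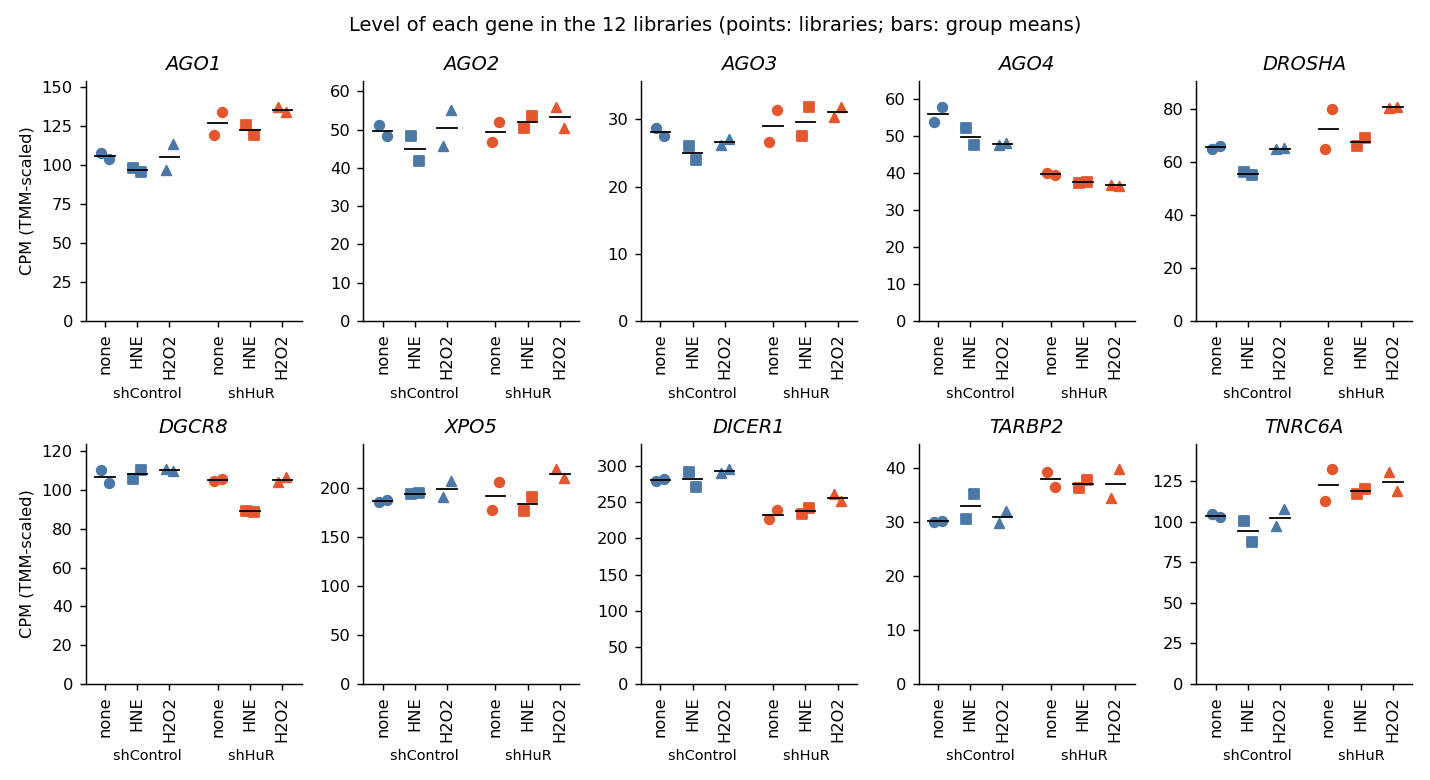
CPM of each of the 10 genes in every library, grouped by line and treatment, with 1 panel a gene and its own axis. Points are libraries, bars are group means, and none on the x axis stands for untreated cells; the lines do not overlap for AGO1, AGO4, DICER1 and TNRC6A.

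DICER1, the enzyme that cuts the loop from exported hairpins, was lower in the shHuR line. Untreated shControl cultures held it at 279 and 282 CPM, and untreated shHuR cultures at 226 and 239 CPM. The pairs after HNE were 292 and 271 against 233 and 242 CPM, and those after H2O2 were 289.8 and 295 against 261 and 251 CPM. The lines did not overlap, and the average difference was -0.23 (SE 0.0363, edgeR adjusted p = 1.17e-04). Its cofactor TARBP2, a double-stranded RNA-binding protein, differed in the opposite direction. TARBP2 stood at 30.1 and 30.2 CPM in untreated shControl and 39.3 and 36.6 CPM in untreated shHuR cultures. After HNE it stood at 30.6 and 35.3 against 36.3 and 37.8 CPM, and after H2O2 at 29.8 and 32.0 against 34.5 and 39.8 CPM. One HNE-treated shControl library, at 35.3 CPM, stood above the lowest shHuR library, and all other shControl libraries stood below the shHuR range. The average difference was 0.25 (SE 0.0562, adjusted p = 2.43e-03 by edgeR). In FPKM, the ratio of DICER1 to TARBP2 averaged 1.40 in shControl cells (1.19 to 1.52) and 1.00 in shHuR cells (0.902 to 1.14), with no overlap.

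DICER1 lies on chromosome 14 at 95086228 to 95158010 (GRCh38, minus strand), and DICER1-AS1, a noncoding gene, is annotated on the opposite strand with an overlap. DICER1-AS1 had 111 to 174 counts in shControl libraries and 45 to 64 counts in shHuR libraries, a difference of -1.22 (edgeR adjusted p = 3.39e-06). The libraries were made with a directional kit, but whether the counting used strand is not given in the sources used here, so the reads of the pair may not be fully separated. The antisense gene had a mean of 3.54 CPM, and DICER1 lay at 226 to 295 CPM. How far reads of either gene were counted for the other was not tested. PRKRA, the other double-stranded RNA-binding partner of DICER1, differed by -0.02 (adjusted p = 0.834), a sign that turned under scaling by library size alone.

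The nuclear pair also differed in sign, but the DGCR8 call did not hold under most alternatives. DROSHA, the enzyme of the pair, stood at 65.1 and 66.3 CPM in untreated shControl and at 65.0 and 80.0 CPM in untreated shHuR cultures. After HNE the pairs were 56.2 and 55.2 against 66.2 and 69.35 CPM, and after H2O2 they were 64.9 and 65.55 against 80.4 and 81.0 CPM. The lines overlapped, since the shHuR libraries at 65.0 and 66.2 CPM fell within the shControl range, and the average difference was 0.24 (SE 0.0503, edgeR adjusted p = 1.43e-03). DGCR8, its RNA-binding partner, stood at 110.3 and 103.5 CPM in untreated shControl and at 105 and 106 CPM in untreated shHuR cultures. The HNE pairs were 106 and 110.4 against 89.3 and 88.85 CPM, and the H2O2 pairs 110.7 and 109.8 against 104 and 107 CPM. Only the HNE-treated shHuR pair lay outside the shControl range. The average difference of -0.12 (SE 0.0447) had an adjusted p of 0.0494 by edgeR, at the edge of the threshold. It kept its call on leaving out replicate 2 of untreated cells of either line and lost it on leaving out any of the other 10 libraries. It also lost its call in 7 of the 9 other fits, and over all these alternatives its adjusted p ran from 0.0317 to 0.145.

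DGCR8 spans 20080232 to 20111877 on the plus strand of chromosome 22 (GRCh38), and its exon 2 carries the microRNA hairpins MIR3618, at chr22:20085746-20085833 and not wholly in coding sequence, and MIR1306. DROSHA and DGCR8 are known to cut such hairpins out of the DGCR8 message itself. The mature arms of MIR1306, from RefSeq (GRCh38.p14), lie in coding sequence at chr22:20086072-20086093 and chr22:20086112-20086129 and are shown with their seeds, bases 2 to 8, in capitals.
miR-1306-5p: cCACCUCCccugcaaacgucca
miR-1306-3p: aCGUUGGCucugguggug
The libraries were not made for RNAs of this size, so the mature arms were not measured. Of the 4440 windows of 75 bases in the DGCR8 transcript used, 25 (0.56%) were shared with the hairpin genes MIR1306 and MIR3618, and no other member shared a window with another gene. TRMT2A, annotated on the opposite strand and overlapping DGCR8, differed by -0.09 (adjusted p = 0.173).

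XPO5, the nuclear export receptor that both microRNA precursors and vector hairpins use, averaged 194 CPM ± 7.83 (SD, n = 6) over the shControl libraries and 197 CPM ± 17.7 (SD, n = 6) over the shHuR libraries. Its libraries overlapped, and its average difference of 0.02 had a 95% confidence interval from -0.07 to 0.12 (edgeR adjusted p = 0.736). Of the 10 genes it had the smallest difference, and 90.4% of all genes tested had a larger one.

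TNRC6A, which links Argonautes to the deadenylase complexes, was higher in the shHuR line. Untreated, the pairs were 105 and 103 CPM in shControl against 113 and 132 CPM in shHuR cultures. After HNE they were 100.5 and 87.6 against 117 and 120.3 CPM, and after H2O2 97.7 and 108 against 130.5 and 119 CPM. The lowest shHuR library stood above the highest shControl library, and the average difference was 0.29 (SE 0.0496, edgeR adjusted p = 3.38e-04). Thus AGO1, TNRC6A, AGO4 and DICER1, 4 of the 10, had lines that did not overlap, which held for 12.1% of the genes tested. The paralogs of TNRC6A did not share a pattern. TNRC6C differed by 0.29 (adjusted p = 6.56e-03), and TNRC6B by -0.12 (adjusted p = 0.131). TNRC6B passed the test in 2 alternative fits. It stayed uncalled in 8 of 9 other fits and in 11 of 12 with a library left out. On leaving out replicate 2 of HNE-treated shControl cells, its lowest library at 129 CPM, it passed at an adjusted p of 0.0105.

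Within single treatments, AGO4 was the member called in all 3 comparisons of the lines, each of which set 2 libraries against 2 with the spread estimated over all 6 groups. In untreated cells 2 of the 10 were called, where 7.98% of all genes and 12.3% of genes in the members' CPM range were. These 2 were AGO4 at -0.49 (edgeR adjusted p = 2.05e-03) and DICER1 at -0.27 (adjusted p = 0.0213). AGO1 at 0.26 and TARBP2 at 0.33 missed the threshold, with adjusted p of 0.0682 and 0.0559. In HNE-treated cells 5 were called, where 8.27% of all genes and 11.1% of genes in the members' CPM range were. AGO1 and TNRC6A were each higher by 0.34 (adjusted p = 0.022 and 0.0351 by edgeR), while AGO4 at -0.41, DICER1 at -0.24 and DGCR8 at -0.28 were lower (adjusted p = 6.43e-03, 0.0315 and 0.0162). In H2O2-treated cells 3 were called, where 7.19% of all genes and 10.8% of genes in the members' CPM range were. These 3 were AGO1 at 0.37, DROSHA at 0.31 and AGO4 at -0.39 (adjusted p = 0.0159, 0.0453 and 8.94e-03). In those cells DICER1 differed by -0.19 (adjusted p = 0.0853) and TNRC6A by 0.28 (adjusted p = 0.0751), neither past the threshold. With 2 libraries a group these calls were fragile. Leaving out either HNE-treated shHuR library left 0 of the 5, and leaving out either H2O2-treated shHuR library or replicate 1 of H2O2-treated shControl cells left 0 of the 3. Without replicate 2 of HNE-treated shControl cells, or without either untreated shControl library, 3 members were called in HNE-treated cells. Without either HNE-treated shControl library, which is in neither comparison but enters the estimate of the spread, 4 members were called in untreated and 5 in H2O2-treated cells. The DICER1 call in untreated cells was lost without any 1 of the 4 untreated libraries, with adjusted p from 0.068 to 0.159, and AGO4 was then the only member called there. In untreated cells the signs of AGO3, DROSHA and XPO5 turned without replicate 2 of shHuR, that of DGCR8 without replicate 1 of shControl, and that of AGO2 without replicate 1 of either line.

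No member passed the test for either treatment. Averaged over the lines, 0 of 10 were called for HNE by edgeR, where 0.247% of 15780 genes were called, and 0 of 10 for H2O2, where 0% of 15801 genes were called. DESeq2 and limma also called 0 of 10 for each. At an unadjusted p under 0.05, 1 member passed for HNE and 3 for H2O2. For HNE it was DROSHA, at -0.17 (SE 0.0689, 95% confidence interval -0.32 to -0.02, adjusted p = 0.349). DROSHA was at 55.2 and 56.2 CPM in HNE-treated shControl cells, below the other 4 shControl libraries, and at 66.2 and 69.35 CPM in HNE-treated shHuR cells, between the untreated values of 65.0 and 80.0 CPM. For H2O2 they were AGO4 at -0.17, XPO5 at 0.13 and DICER1 at 0.10 (adjusted p = 0.9 for each). AGO4 in H2O2-treated cells lay below the untreated pair in both lines, at 47.7 and 48.2 CPM against 54.0 and 58.0 CPM in shControl and at 36.7 and 36.8 CPM against 39.5 and 40.2 CPM in shHuR. None of these treatment differences passes the correction over all genes.

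**Figure D3:**
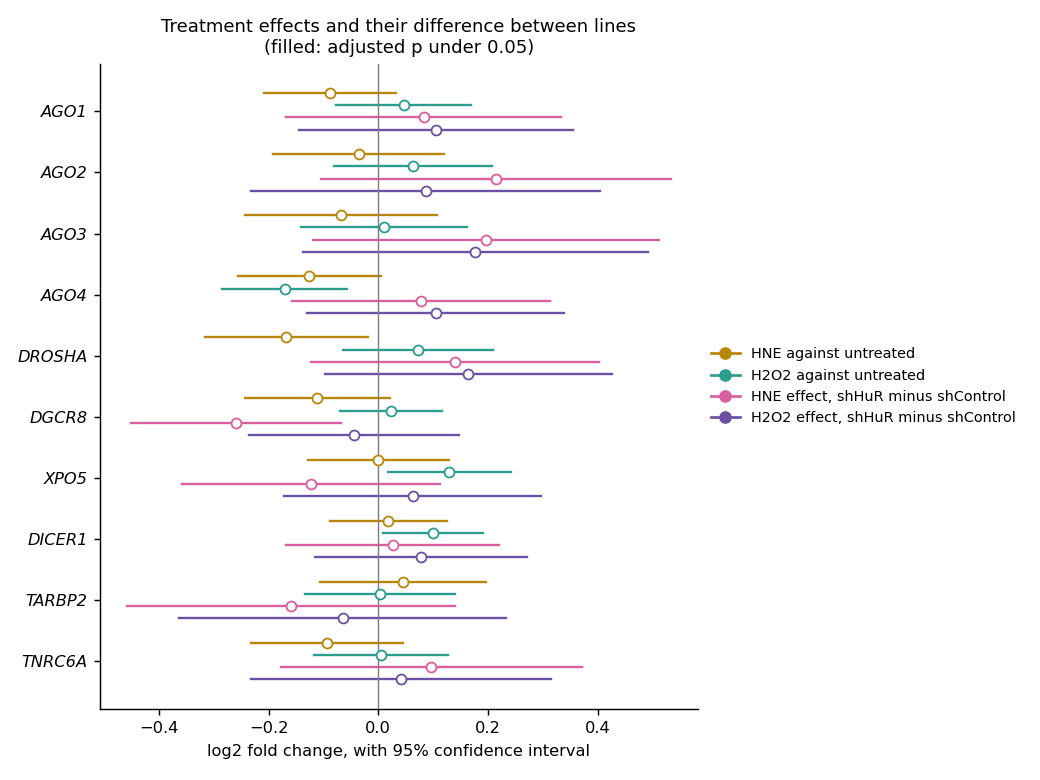
Difference of HNE-treated and of H2O2-treated from untreated cells for each of the 10 genes, averaged over the lines, and the difference of each between the lines. The x axis is the log2 fold change with 95% confidence intervals; no member passed the test, and the intervals of DROSHA for HNE and of AGO4, XPO5 and DICER1 for H2O2 leave out 0, as does that of DGCR8 for the HNE difference between lines.

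The test of whether a treatment acted differently in the 2 lines also called 0 of 10 for HNE and 0 of 10 for H2O2, with 0% of the 16005 genes called in either. At an unadjusted p under 0.05, 1 member passed for HNE and 0 for H2O2, and DESeq2 and limma called 0. That member was DGCR8, with a difference between the lines' HNE responses of -0.26 (SE 0.0892, 95% confidence interval -0.45 to -0.07, edgeR adjusted p = 0.712). In shHuR cells both HNE libraries, at 89.3 and 88.85 CPM, lay below the untreated pair at 105 and 106 CPM, whereas in shControl cells the HNE pair at 106 and 110.4 CPM overlapped the untreated pair at 110.3 and 103.5 CPM. The calls that differ between treatments for DGCR8, DROSHA, DICER1, AGO1 and TNRC6A are therefore not shown to be differences in response.

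Per length, XPO5 stood highest, with a mean of 37.0 FPKM over the 12 libraries, followed by DICER1 at 28.9, TARBP2 at 24.5, DGCR8 at 23.6, AGO1 at 15.5, AGO2 at 14.9, TNRC6A at 13.2, DROSHA at 12.8, AGO3 at 8.05 and AGO4 at 6.37 FPKM. DGCR8 thus stood above its enzyme partner: the ratio of DROSHA to DGCR8 in FPKM averaged 0.477 in shControl cells (0.415 to 0.532) and 0.613 in shHuR cells (0.516 to 0.648), with overlap. In shControl cells DICER1, at 29.7 to 32.3 FPKM, did not overlap TARBP2, at 20.6 to 25.1 FPKM. In shHuR cells, at 25.3 to 27.95 and 24.6 to 28.4 FPKM, they did overlap. Whether this pair overlaps depends on the lengths used. Counts over FPKM imply 9.1 kb for DICER1 and 1.41 kb for TARBP2, while the transcripts used here have 10331 and 1867 bases. AGO3 and AGO4 overlapped in shControl cells, at 6.78 to 8.17 and 6.75 to 8.26 FPKM, and not in shHuR cells, at 7.61 to 9.09 and 5.25 to 5.75 FPKM. AGO1 overlapped AGO2, AGO2 overlapped TNRC6A and TNRC6A overlapped DROSHA in both lines, while TARBP2 overlapped DGCR8 in shControl and not in shHuR cells. The other neighbours in this order did not overlap in either line. This order and the overlaps between genes rest on the gene lengths the authors used. Counts divided by FPKM imply 3.37 kb for AGO2 and 3.52 kb for AGO3, where the GENCODE 29 transcripts used here have 14581 and 19687 bases. With other lengths the places of these genes and their overlaps can differ.

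**Figure D4:**
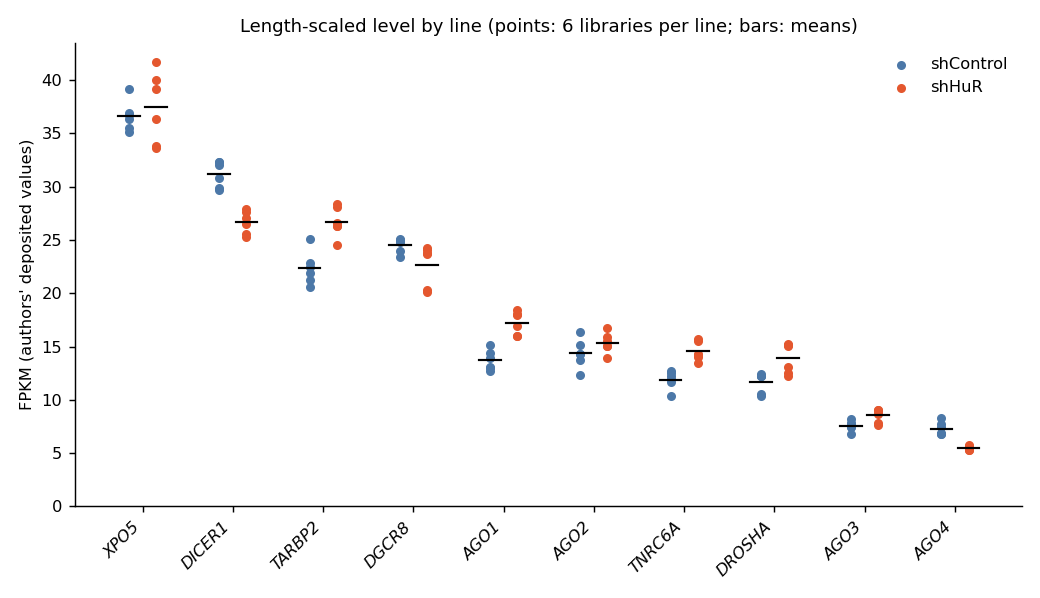
FPKM of the 10 genes in order of their mean over the 12 libraries, with each library as a point, bars as the mean of 6 libraries a line, and the lines in different colours. With the gene lengths the authors used, XPO5 is highest and AGO4 lowest. The lines do not overlap for DICER1, AGO1, TNRC6A and AGO4.

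Of 68 other genes of the pathway, listed by role, 67 could be tested and 24 were called in the average line difference, with 15 up and 9 down in the shHuR line. That is 35.8%, against 29.9% of all genes and 39.7% of genes in the members' CPM range. Of all genes, 14.1% were called higher and 15.9% lower. The median difference of the 67 was 0.02. These lists too were chosen with earlier results of these data known. Of 13 processing partners 4 were called (30.8%), 3 higher and 1 lower. The higher ones included KHSRP, a processing factor that binds microRNA precursors, at 0.55 (adjusted p = 9.10e-06). Of 14 genes of Argonaute loading, chaperoning and nuclear import 5 were called (35.7%), 4 higher and 1 lower, and HSPA8, a constitutive Hsp70 chaperone that helps to open Argonautes for loading, had the largest difference of the list, at 0.67 (adjusted p = 6.98e-09).

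Of 26 silencing effectors 12 were called (46.2%, against 29.9% of all genes and 39.7% of genes in the members' CPM range), 8 higher and 4 lower. The deadenylases were divided: CNOT7, a catalytic subunit of the CCR4-NOT complex, was higher by 0.39 (adjusted p = 1.49e-06), and CNOT6L, another catalytic subunit, differed by -0.30 (adjusted p = 1.43e-04). PAN2 and PAN3, the subunits of the other deadenylase complex that TNRC6 proteins recruit, differed by -0.50 and -0.23 (edgeR adjusted p = 3.12e-06 and 7.71e-04); the deposited counts of PAN2 were not all whole numbers. EDC3, a decapping activator, was higher by 0.30 (adjusted p = 3.13e-04), and AJUBA, a LIM protein that binds Argonautes, differed by -0.25 (adjusted p = 1.48e-03). CNOT3, a further subunit of CCR4-NOT, was higher by 0.29 (adjusted p = 0.0352). It lost its call in 8 alternative fits, with an adjusted p of up to 0.104. Among them were those without shHuR H2O2 replicate 1 or 2, shHuR untreated replicate 2, shControl H2O2 replicate 1 or shControl untreated replicate 2. Of 14 tested genes of small RNA turnover and tailing 3 were called (21.4%, below the 29.9% of all genes), each lower, where 15.9% of all genes were called lower. They included LIN28B, which blocks processing of let-7 precursors, at -0.38 (adjusted p = 7.25e-06), and PAPD5, a noncanonical poly(A) polymerase, at -0.33 (adjusted p = 4.40e-04).

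**Figure D5:**
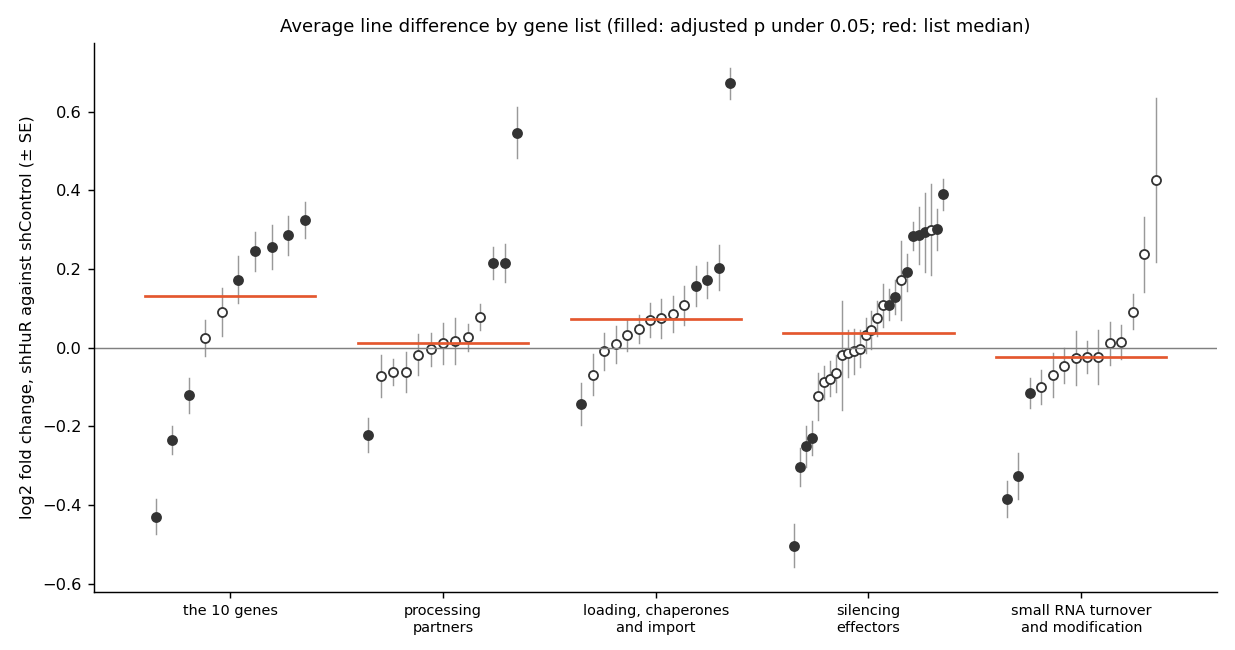
Average difference between the shHuR and shControl lines for the 10 genes and for the other pathway genes tested, grouped by role. The y axis is the log2 fold change ± SE, each point is a gene, red lines are list medians, and filled points passed the test. Of the other pathway genes, 15 called ones lie above 0 and 9 below.

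The genes whose centred log2 CPM followed a member most closely over the 12 libraries were sought among 11268 genes, for the members with the largest called rise and fall. For AGO1 they were POLR1A, a subunit of RNA polymerase I, with a root mean square difference of 0.0383, LMTK2, a membrane kinase, at 0.0539, and PITPNA, a phosphatidylinositol transfer protein, at 0.054, against a median of 0.219 over all genes compared. For AGO4 they were GPM6A, a neuronal membrane glycoprotein, at 0.0652, LDHA, lactate dehydrogenase A, at 0.0676, and HSPE1, a mitochondrial chaperonin, at 0.0693, against a median of 0.258. The libraries share their lines and treatments, and the counts of HSPE1 were not all whole numbers.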

How the data were processed

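RNA was measured in 12 libraries of HEK293T cells, 2 for each of 6 groups, after ribosomal RNA depletion with a directional kit and single-end 75 bp sequencing, per the labels' protocols. Per the submitters' processing notes, the tools included cutadapt 1.8, Bowtie2 2.2, TopHat2 2.1, Cufflinks 2.2, Cuffnorm and Cuffdiff, and the builds named are GRCh37 and hg19; their order and the use of strand in counting are not given in the sources used here. The authors deposited estimated counts per gene symbol, of which 2.25% (701 genes, no member) were not whole and were rounded, and a table of FPKM values.

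Counts were tested with edgeR 4.0.16 in R 4.3.3 (TMM scaling, filterByExpr with a minimum count of 10, quasi-likelihood test, Benjamini-Hochberg over all genes tested, threshold 0.05). The average line difference was fitted on all 12 libraries with treatment as a covariate, the line difference within a treatment and the interactions on 6 group means, and the average treatment difference on the 8 libraries concerned with line as a covariate. The fits were tested on simulated data. DESeq2 1.42.0 on counts and limma 3.58.1 on log2(FPKM + 1) or log2(FPKM + 0.1) were alternatives, as were library size scaling, no filter on low values, fits of the compared groups alone, a replicate block and leaving out each library. Intervals are 95% confidence intervals of the fit. CPM values use TMM library sizes.

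The members and the pathway lists were chosen with earlier results of these data known. The other genes named are TNRC6B, TNRC6C and PRKRA, up to 6 called pathway genes with the largest difference in each direction, the 3 genes nearest to AGO1 and to AGO4 among those with a mean of at least 5 CPM, and genes overlapping a member on the opposite strand. Positions and transcripts are from GENCODE 29 on GRCh38, not the authors' build, and were used for sequence and neighbours only. Of the listed pathway genes, HENMT1 failed the filter and CNOT9 was found under its older symbol RQCD1.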

Additional observations from a re-analysis of the deposited data

How the results depend on the processing

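AGO1, AGO4, DICER1, TARBP2, DROSHA and TNRC6A kept their call in the average line difference in all 21 alternative fits. Leaving out single compared libraries in the comparisons within a treatment was added after seeing the data, and the lone library left was assumed to vary like the other groups. In untreated cells, against 2 members called, DESeq2 called 4, no filter 5, the compared groups alone 4, library size scaling 3 (1 higher and 2 lower), and limma 1 with a pseudocount of 1, of 0.1 or with no filter. Leaving out 1 library gave 1 to 4. In HNE-treated cells, against 5, library size scaling called 3, limma without a filter 3 and the compared groups alone 0, with 0 to 6 on leaving out 1 library. In H2O2-treated cells, against 3, limma without a filter called 1, with 0 to 5 on leaving out 1 library. Library size scaling turned the sign of PRKRA in the average line difference (0.00457) and of AGO2 in untreated cells (0.011). Other signs turned on leaving out 1 library. In the average line difference XPO5 ran from -0.00548 to 0.0526, PRKRA from -0.042 to 0.0258 and POLR1C, which overlaps XPO5 on the opposite strand, from -0.0121 to 0.0302. In untreated cells AGO2 ran from -0.0902 to 0.0726, AGO3 from -0.0749 to 0.166, DROSHA from -0.0147 to 0.2897, XPO5 from -0.0677 to 0.153 and DGCR8 from -0.0645 to 0.0258. In H2O2-treated cells AGO2 ran from -0.0457 to 0.22. The cause was not tested. With a replicate block 7 members were called in the average line difference (DGCR8 at an adjusted p of 0.0599), 2 in untreated, 4 in HNE-treated (TNRC6A at 0.0527) and 3 in H2O2-treated cells. The numbers did not pair the samples: same-numbered deviations correlated from -0.439 to 0.431 over 15 pairs of groups. Of 1407 alternative values, 1266 kept direction and side of the threshold, 98 lost the call, 27 gained one and 16 turned sign. The comparisons within a treatment rest on 2 libraries a group.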
